A study of Mus musculus with 8 samples.

Results

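Clathrin-mediated endocytosis was described through 10 genes (Cltc, Clta, Cltb, Itsn1, Dnm1, Dnm3, Picalm, Amph, Bin1 and Snap91) in the cerebral cortex of Nova2 knockout (Nova2 KO) and wild type mice. They are 10 of 12921 genes that a probe set of the deposited table named alone, and 334 of its 391597 probe sets named one of them and no other gene. The genes were picked with their values in this same comparison known, in particular a pair of Cltc probe sets, so their own differences are given as a description and not as a test. Each group held 4 CD1 mice at postnatal day 10, with 1 exon array per mouse and cortex RNA extracted with Trizol. The labels give no age other than this, no sex, no treatment and no further allele. The labels also do not state which piece of Nova2 was removed or whether the mice of both groups were littermates. Nova2, an RNA-binding protein of neurons, sets which alternative exons enter an mRNA, and the comparison asks what its loss does to transcripts and to single exons.

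In clathrin-mediated endocytosis, adaptor proteins gather cargo at the plasma membrane and recruit clathrin triskelia, which are built from heavy and light chains and assemble into a curved coat. Proteins with a BAR domain shape the neck of the pit, the GTPase dynamin cuts it, and uncoating factors release the coat from the vesicle. Nerve terminals use this route to retrieve synaptic vesicle membrane, and several of its genes have neuronal forms made by alternative splicing.

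An exon array reads each gene through many probe sets, most of which lie in one exon. The deposited values are log2 signals. Probe sets whose mean over the 8 arrays exceeded 5.86 log2 (the 25th percentile) were kept, which left 319 of the 334 probe sets of these genes. The other 15 were dim, with differences between -0.71 log2 (Cltc) and 0.74 log2 (Snap91). The gene value of an array is the median of a gene's kept probe sets. The index of a probe set is its log2 signal with that array's gene value subtracted, so that a negative index means a signal under the median of its gene. Differences are Nova2 KO minus wild type with the standard error (SE) of the limma fit over the whole table, n = 4 per group, and "called" means a Benjamini-Hochberg adjusted p under 0.05 over that whole table.

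The arrays had medians between 7.02 and 7.37 log2 and pairwise Spearman correlations between 0.935 and 0.976, and wild type 4 and Nova2 KO 4 held the most values at the lower limit of the scale (3.34% and 2.20%). Probe set 5294108 of Nova2 lay at 8.68 ± 0.14 log2 (mean ± SD) in wild type and at 6.86 ± 0.45 in Nova2 KO, with no overlap. Its difference of -1.82 log2 (SE 0.22) was not called. Neuronal markers were abundant in both groups: the 5 measured of 6 pan-neuronal genes averaged 11.93 to 12.01 log2 on wild type arrays and 11.90 to 12.09 on Nova2 KO arrays, with 0 called. All 7 measured of 8 myelin genes were lower in Nova2 KO, 2 of them called (Mal and Mog), where 0.208% of all genes were called. The summed linear signal of these 7 was 4810 to 5755 in wild type and 3345 to 4206 in Nova2 KO. In whole cortex, fewer cells of a type and less RNA per cell cannot be told apart.

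Cltc encodes the clathrin heavy chain, the structural leg of the triskelion. Its gene value was 11.49, 11.55, 11.44 and 11.44 log2 on wild type arrays 1 to 4 and 11.71, 11.62, 11.66 and 11.57 log2 on Nova2 KO arrays 1 to 4. The groups did not overlap, and every Nova2 KO array was the higher. The difference was 0.16 log2 (SE 0.089), or 1.12-fold, and was not called. It lay between 0.050 and 0.18 log2 in the 18 other settings. Of the 43 kept Cltc probe sets, 32 were higher in Nova2 KO and 11 lower, with a median difference of 0.072 log2.

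A pair of Cltc probe sets went the other way. Probe set 4553841 had signals of 9.88, 9.82, 9.99 and 9.83 log2 in wild type and of 8.79, 8.83, 9.12 and 8.68 log2 in Nova2 KO. Every Nova2 KO array was thus below every wild type array, and the gap between the groups was wider than the range of either one. The signal differed by -1.02 log2 (SE 0.13), which left 49.2% of the wild type level on the linear scale. Relative to the gene value of Cltc, the index went from -1.60 ± 0.11 to -2.78 ± 0.17 and fell by 1.18 log2 (SE 0.11), or 2.27-fold. It was the 1 called probe set among the 319 of these genes, where 0.0133% of all probe sets were called in the index and 0.00769% were called lower. The signal itself was not called. The index call was lost in 11 of 19 other settings, among them leaving out any 1 array other than Nova2 KO 3, while the difference stayed between -1.27 and -1.07 log2.

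The second of the pair, 5188961, had signals of 8.17, 8.07, 8.31 and 8.11 log2 in wild type and of 6.73, 6.58, 7.41 and 6.46 log2 in Nova2 KO. The groups were again apart, with Nova2 KO 3 nearest to wild type. Its index lay at -3.32, -3.47, -3.13 and -3.33 in wild type and at -4.97, -5.04, -4.25 and -5.11 in Nova2 KO. The index difference was -1.53 log2 (SE 0.19), larger than that of 4553841 but with more spread between the Nova2 KO arrays, and it was not called. Without Nova2 KO 3 both probe sets were called, at -1.27 log2 for 4553841 and -1.73 log2 for 5188961. That was the only 1 of 19 other settings in which 5188961 was called, and it leaves out the array nearest to wild type.

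The pair moved together from array to array. In both probe sets array 3 had the highest signal of each group, and the order of the wild type arrays was the same, 3, then 1, then 4, then 2. The Pearson correlation of their indices over the 8 arrays was 0.987, and it was 0.917 for the deviations from the group means. Both share the gene value that is subtracted, so part of this likeness is built in. The Nova2 probe set read 6.28, 7.17, 7.26 and 6.73 log2 on Nova2 KO arrays 1 to 4. Nova2 KO 3 was the highest there too, just above Nova2 KO 2. On wild type arrays 1 to 4 the Nova2 probe set read 8.87, 8.65, 8.53 and 8.66 log2. It was thus lowest on wild type 3, where the pair was highest. A link between the level of Nova2 and the pair was not tested. Where the pair lies in Cltc, and whether both cover one exon, was not analysed here.

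**Figure D1:**
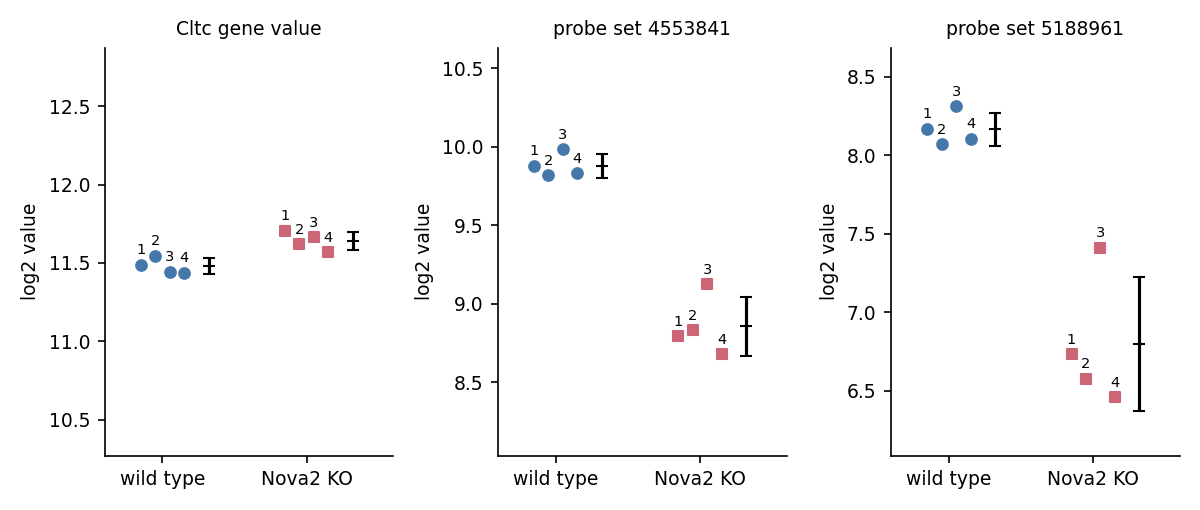
Cltc on each array, as log2 gene value (left panel) and as log2 signal of the probe sets 4553841 and 5188961 (middle and right), with 1 numbered point per array and a bar for mean ± SD (n = 4 per group). Each panel spans the same height in log2 units, and the gene value is higher on all 4 Nova2 KO arrays whereas both probe sets are lower on all 4.

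The other 41 Cltc probe sets had no such drop. Their index differences ran from -0.31 to 0.71 log2 with a median of -0.087, and 2 of them (4.88%) had index values without overlap, close to the 4.12% of all probe sets. Probe set 5543002, next in order of p, had an index difference of -0.23 log2 (SE 0.093) but a signal difference of only -0.072 log2. The highest was 4732019, a dim probe set at 5.46 log2 in wild type against 6.33 in Nova2 KO, which passed the limit on low signal through its Nova2 KO arrays. The SD of the index difference over the probe sets of Cltc was 0.329 log2, and 3.53% of the 11187 genes with an index had a larger one.

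**Figure D2:**
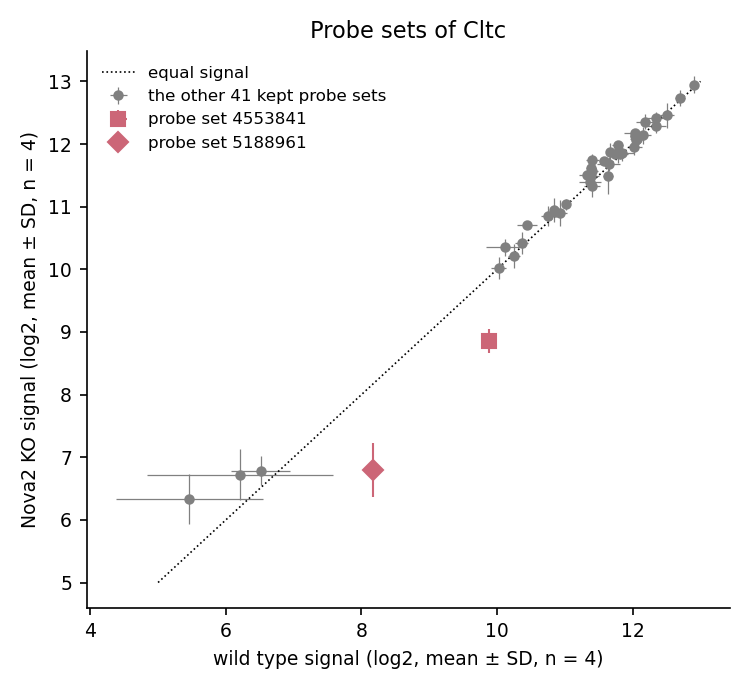
Mean signal (log2, ± SD, n = 4 per group) of the 43 kept Cltc probe sets in wild type (horizontal) and Nova2 KO (vertical), with a dotted line of equal signal. The probe sets 4553841 and 5188961 differ by -1.02 and -1.37 log2 and lie below the line, and 32 of the other 41 lie above it.

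Clta and Cltb encode the light chains, which bind the heavy chain leg and regulate assembly, and whose neuronal forms carry extra alternative exons. The gene value of Clta was 10.27, 10.26, 10.40 and 10.50 log2 in wild type and 10.41, 10.26, 10.53 and 10.59 in Nova2 KO. The groups overlapped, and the difference was 0.091 log2 (SE 0.11), or 0.045 to 0.15 log2 with single arrays left out. Cltb read 10.82, 11.04, 10.69 and 10.77 log2 in wild type and 10.90, 10.90, 11.05 and 10.92 in Nova2 KO. The groups overlapped, and the difference was 0.12 log2 (SE 0.10), or 0.068 to 0.18 log2 with single arrays left out. It fell to 0.032 log2 in another setting. On every array this gene value was the signal of probe set 5587715, whose difference was the largest of the 7 kept. The median difference of the 7 was 0.025 log2, with 5 higher and 2 lower.

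In Clta, the probe set with the lowest index p was 5089351. Its signal was 7.66, 7.21, 7.62 and 7.24 log2 in wild type and 6.90, 7.16, 7.04 and 6.97 log2 in Nova2 KO. The signals of the groups were apart by a narrow margin, while the index values overlapped, with an index difference of -0.50 log2 (SE 0.17). Probe set 5176486 of Clta was higher on every Nova2 KO array, with 11.77, 11.59, 11.77 and 11.88 log2 in wild type against 11.92, 11.88, 12.19 and 12.11 in Nova2 KO. Its index difference was 0.18 log2 (SE 0.085), and 0 of the 11 Clta probe sets were called.

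Cltb was the most even of the genes along its length. The largest index difference of its 7 probe sets was -0.16 log2 (5394420, SE 0.11), and the SD over them was 0.0662 log2, which 99.1% of genes exceeded.

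Dnm1 encodes the dynamin of neurons, the GTPase that severs the vesicle neck at nerve terminals. It had the lowest p of the 10 genes in gene value, which read 11.45, 11.57, 11.59 and 11.41 log2 in wild type and 11.25, 11.05, 11.03 and 11.03 log2 in Nova2 KO. All 4 Nova2 KO arrays were below all 4 wild type arrays, and Nova2 KO 1 was the nearest to them. The means were 11.51 ± 0.092 and 11.09 ± 0.11 log2, a difference of -0.42 log2 (SE 0.098), which left 74.9% of the wild type level. The difference exceeded both group SDs but was not called over all genes, of which 0.208% were called.

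The lower level of Dnm1 ran along most of its probe sets. Of 32 kept probe sets, 29 had a lower mean signal in Nova2 KO, by differences from -0.70 to -0.014 log2 with a median of -0.42 log2, and 13 of the 29 had no overlap between the groups, where 5.1% of all kept probe sets had none. Among the 23 probe sets with a wild type mean of at least 10 log2, 21 were lower. On the same arrays the marker lists went in different directions: 4 of 5 pan-neuronal genes were higher (median 0.077 log2), 3 of 5 of excitatory neurons (0.18 log2) and 5 of 6 of interneurons (0.033 log2). The lower neuronal genes were Camk2a (-0.35 log2), Gad2 (-0.20 log2), Slc17a7 (-0.19 log2) and Map2 (-0.093 log2). The summed linear signal of the 5 excitatory genes was 9553 to 9787 in wild type and 7937 to 9477 in Nova2 KO, without overlap. The sums of the pan-neuronal genes and of the interneuron genes overlapped. All 7 myelin genes were lower (median -0.58 log2). The part of these marker genes in the Dnm1 values was not tested.

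The 3 Dnm1 probe sets that were not lower (5420205, 4509959 and 4605461) were also the 3 with the lowest index p. Probe set 5420205 read 11.93, 11.88, 11.94 and 11.88 log2 in wild type and 12.06, 11.93, 12.42 and 11.91 log2 in Nova2 KO. The signals overlapped and Nova2 KO 3 stood highest. Its signal differed by 0.17 log2, and its index by 0.59 log2 (SE 0.14), because the index also takes up the lower gene value. Probe sets 4509959 and 4605461 had the same form, with signal differences of 0.24 and 0.16 log2, index differences of 0.66 (SE 0.16) and 0.58 log2 (SE 0.17), and the highest signal on Nova2 KO 3. None of the 3 was called.

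Dnm3 encodes a dynamin of brain and testis that is also found on the postsynaptic side. Its gene value was 8.79, 8.87, 8.74 and 8.60 log2 in wild type and 8.84, 8.79, 8.94 and 8.63 log2 in Nova2 KO. The groups overlapped throughout, and the difference was 0.048 log2 (SE 0.10). Of its 36 probe sets, 24 were higher and 12 lower. The lowest index p belonged to 5231405, a dim probe set with means of 7.17 log2 in wild type against 6.77 in Nova2 KO, whose index differed by -0.45 log2 (SE 0.18) with overlap.

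**Figure D3:**
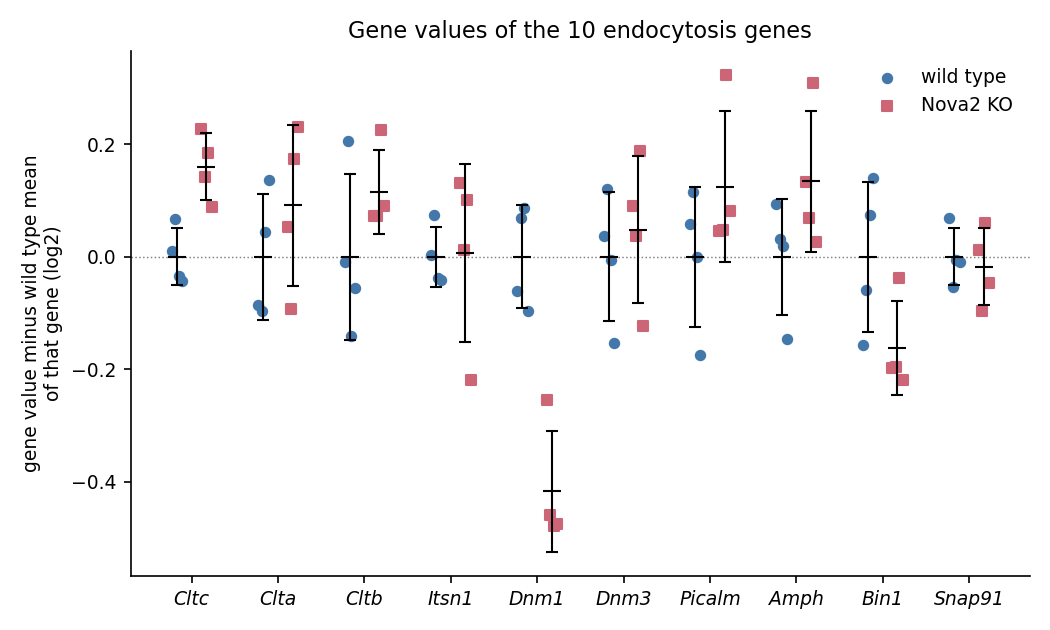
Gene value of the 10 genes on each array minus the wild type mean of that gene (log2), with points for wild type and Nova2 KO arrays and bars for mean ± SD (n = 4 per group). Cltc (difference 0.16 log2) and Dnm1 (-0.42 log2) are the 2 genes whose groups do not overlap.

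Itsn1 encodes intersectin, a scaffold with EH and SH3 domains that links adaptors to dynamin, and neurons make a longer form of it with an exchange factor region for Cdc42. Its gene value was 9.29, 9.36, 9.24 and 9.24 log2 in wild type and 9.41, 9.29, 9.38 and 9.06 log2 in Nova2 KO, a difference of 0.0068 log2 (SE 0.10) whose sign turned under several settings (-0.035 to 0.082 log2 when single arrays were left out). The spread among its probe sets was larger than this. In Nova2 KO 25 of its 60 index values were higher and 35 lower. An unadjusted p under 0.05 was found for 19 of them (31.7%), against 6.76% of all probe sets. Those 19 were 8 higher (0.23 to 0.63 log2) and 11 lower (-0.60 to -0.22 log2). A share as high in the index was found in 2.18% of genes, and none of the 60 was called. In signal, 5 of the 60 had an unadjusted p under 0.05, where 6.68% of all kept probe sets did. All 60 indices share the gene value that is subtracted, so they are not independent.

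Probe set 4907127 of Itsn1 had the lowest index p. Its signal was 9.10, 9.10, 9.22 and 9.37 log2 in wild type and 9.84, 10.01, 9.90 and 9.58 log2 in Nova2 KO. Every Nova2 KO array was above every wild type array, and the arrays numbered 4 were the closest to each other. Signal and index both differed by 0.63 log2 (SE 0.14 and 0.11), or 1.55-fold in signal. In the other direction, 5598999 read 10.11, 9.96, 10.03 and 9.97 log2 in wild type and 9.85, 9.81, 9.77 and 9.58 in Nova2 KO, again with no overlap, and its index differed by -0.27 log2 (SE 0.088). Probe set 5115644 had an index difference of -0.30 log2 (SE 0.095), with index values apart and signals overlapping.

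Picalm and Snap91 encode the paired adaptors CALM, made in most tissues, and AP180, made in neurons, which bind phosphoinositides and clathrin and sort VAMP proteins into the pit. The gene value of Picalm was 10.76, 10.82, 10.71 and 10.53 log2 in wild type and 10.75, 10.75, 11.03 and 10.79 log2 in Nova2 KO. The groups overlapped, Nova2 KO 3 was the highest and wild type 4 the lowest, and the difference was 0.12 log2 (SE 0.11), or 0.058 to 0.16 log2 with single arrays left out. Of its 39 probe sets 36 were higher in Nova2 KO, 4 of them without overlap (5.1% of all kept probe sets were apart in either direction).

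The clearest of these, 5130826, read 9.88, 9.96, 9.81 and 9.88 log2 in wild type and 10.21, 10.15, 10.42 and 10.34 log2 in Nova2 KO. The groups were apart by more than the wild type range. The signal differed by 0.40 log2 (SE 0.12) and the index by 0.28 log2 (SE 0.092). A further Picalm probe set, 5598579, had an index difference of 0.26 log2 (SE 0.10) with index values apart and signals that touched. Neither was called.

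Snap91 barely differed in gene value, with 11.59, 11.47, 11.52 and 11.51 log2 in wild type and 11.54, 11.43, 11.58 and 11.48 log2 in Nova2 KO. The difference was -0.018 log2 (SE 0.090), and its probe sets split into 18 higher and 20 lower. Its lowest index p belonged to 5109940, with an index difference of -0.23 log2 (SE 0.094) and overlap. Probe set 5196025 had index values apart by a narrow margin, at -0.11 log2 (SE 0.080).

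Amph and Bin1 encode amphiphysin and its partner bridging integrator, BAR domain proteins that bind curved membrane and recruit dynamin through an SH3 domain. Amphiphysin is mostly neuronal. Bin1 is made in many cell types, with a clathrin-binding insert in neurons and other forms in glia and muscle.

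The gene value of Amph was 10.85, 10.79, 10.78 and 10.61 log2 in wild type and 10.89, 10.82, 11.06 and 10.78 log2 in Nova2 KO. The groups overlapped through Nova2 KO 4 and Nova2 KO 2, and the difference was 0.13 log2 (SE 0.10), or 0.076 to 0.17 log2 with single arrays left out. Of its 24 probe sets 19 were higher in Nova2 KO, 6 of them without overlap, where 5.1% of all kept probe sets were apart in either direction. Probe sets 4984544 and 5500057 were among those 6, with signal differences of 0.31 and 0.32 log2 and index differences of 0.17 (SE 0.078) and 0.18 log2 (SE 0.084). The lowest index p of the gene belonged to the dimmer 5425619, at -0.48 log2 (SE 0.20) with overlap.

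Bin1 had a gene value of 10.33, 10.43, 10.56 and 10.63 log2 in wild type and of 10.29, 10.30, 10.45 and 10.27 log2 in Nova2 KO. The difference was -0.16 log2 (SE 0.10) with overlap, although 22 of its 29 probe sets were higher, and their median difference was 0.081 log2. The median over probe sets and the bulk of the probe sets thus differ in sign, and with the mean over probe sets as the gene value the difference was 0.13 log2. The lower myelin genes on the same arrays (median -0.58 log2) moved with the gene value of Bin1 and against most of its probe sets, and their part in it was not tested.

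Several Bin1 probe sets read low on the arrays numbered 4. On wild type 4, 7 of the 29 lay more than 1 log2 below the lowest of the other 3 wild type arrays, and 6 of the 7 did so on Nova2 KO 4 as well. Such a drop on either array occurred in 24.1% of Bin1 probe sets, in 4.7% of the probe sets of the 10 genes and in 2.76% of all kept probe sets that named 1 gene. Probe set 4531470 was an example, with 10.18, 10.43, 10.56 and 6.98 log2 in wild type and 10.29, 10.30, 10.40 and 9.23 log2 in Nova2 KO, and its signal difference of 0.52 log2 became -0.062 log2 without the arrays numbered 4. Without them 23 of the 29 Bin1 probe sets were still higher in Nova2 KO.

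The Bin1 probe set of lowest index p was not one of the 7. Probe set 4658552 read 9.42, 9.31, 9.38 and 9.33 log2 in wild type and 9.61, 9.86, 9.69 and 9.52 log2 in Nova2 KO. All 4 Nova2 KO arrays were above the wild type arrays, with a signal difference of 0.31 log2 (SE 0.12) and an index difference of 0.47 log2 (SE 0.12). Probe sets 4387878 and 5249427 had index differences of 0.41 (SE 0.12) and 0.34 log2 (SE 0.10), with index values apart and signals overlapping.

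Over the 10 genes, 7 gene values were higher and 3 lower in Nova2 KO, between -0.42 (Dnm1) and 0.16 log2 (Cltc), with a median of 0.070 log2 beside 0.022 log2 for all 11992 genes tested. The signs of Itsn1, Bin1, Snap91 and Dnm3 turned under at least 1 other setting. By limma 0 of the 10 were called, and 1 (Dnm1) had an unadjusted p under 0.05 where 11.6% of all genes did. The groups did not overlap for 2 of the 10, against 7.56% of all genes. Those 2 were Cltc, higher, where 5.06% of all genes were apart in that direction, and Dnm1, lower, where 2.5% were. The SEs lay between 0.089 and 0.11 log2.

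Over the 319 probe sets, 154 index differences were positive and 163 negative. The groups did not overlap in the index for 23 of them (7.21%), against 4.12% of all probe sets. At least 1.5-fold differences were found for 14 (4.39%), against 1.55% of all. These 14 were 4 of Bin1, 3 each of Cltc and Itsn1, 2 of Dnm1 and 1 each of Dnm3 and Snap91, and 4 of the 319 (1.25%) were lower by that much, as were 0.683% of all probe sets. Nothing is read from these counts: 2 of the 14, Cltc 4732019 and Dnm3 5258709, had a mean under the limit on low signal in 1 group and were kept through the other. The 4 of Bin1 (4531470, 4732071, 4921470 and 5343131) were all among the probe sets that read low on the arrays numbered 4. Without those arrays their signal differences were -0.062, 0.55, 0.86 and 0.64 log2. In signal, 193 of the 319 were higher and 126 lower. The groups did not overlap for 42 (13.2%), against 5.1% of all kept probe sets. Dnm1 alone gave 13 of these 42, and probe sets of the same gene are not independent. In signal 0 of the 319 were called by limma, with 36 at an unadjusted p under 0.05, where 0.00681% of all were called and 6.68% had such a p. Taking each gene's probe sets together (Simes p), 0 of the 10 were called, where 0.161% of 11187 genes were called. An unadjusted Simes p under 0.05 was found for 3 of the 10, and the share of all genes at that limit was not computed. Since the genes were chosen on this comparison, these shares describe the choice as well as the genes.

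**Figure D4:**
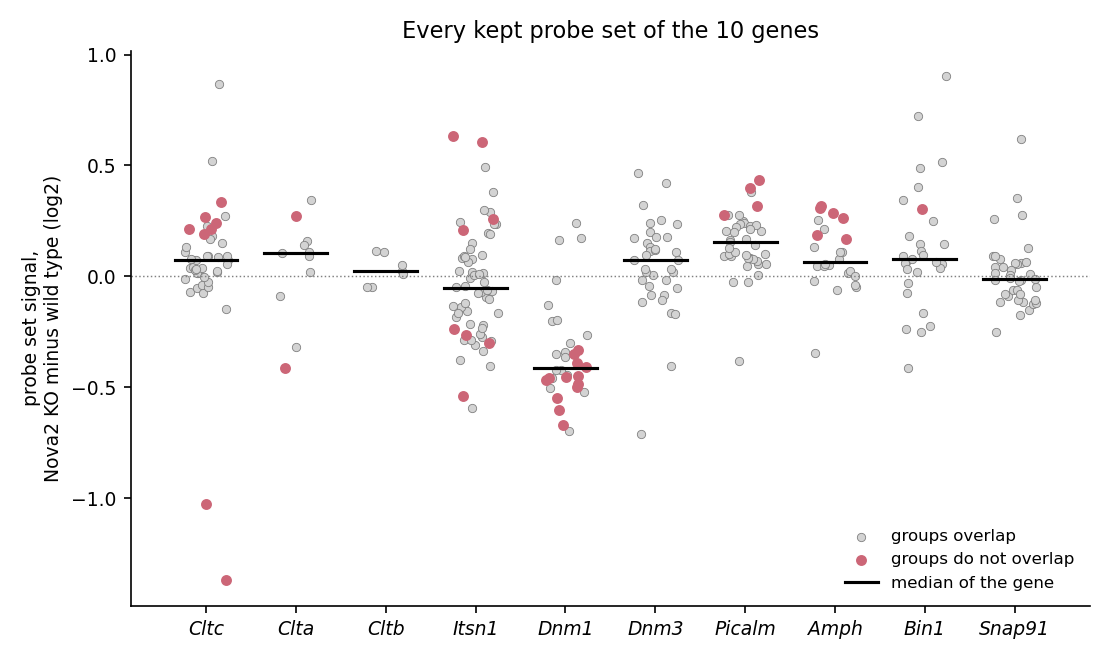
Signal difference (Nova2 KO minus wild type, log2) of each of the 319 kept probe sets, by gene, with filled points where the groups do not overlap and a line at the median of the gene. The Cltc pair at -1.02 and -1.37 log2 lies below all other probe sets, and the median of Dnm1 lies at -0.41 log2.

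The index profile of Cltc probe set 4553841 over the 8 arrays was compared with that of every other probe set by Pearson correlation. The 5 closest of other genes were probe sets of Coch (4886640, r = 0.987), Snhg14 (5139098, r = 0.984), Grik2 (4896631, r = 0.983), Srsf1 (5228252, r = 0.979) and Pex16 (4891852, r = 0.978). Their own index differences were smaller, from -0.65 log2 (Snhg14, SE 0.090) to -0.20 log2 (Srsf1, SE 0.075), and none was called. They are the extremes of all the probe sets compared and all follow the same division into groups, so the correlations carry no p.

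The rest of the endocytic machinery was listed in 7 groups of 82 genes, of which 78 were measured. In gene value, 44 were higher and 34 lower, with a median of 0.024 log2 beside 0.022 log2 for all genes. By limma 0 of the 78 were called in gene value, where 0.208% of all genes were. In exon usage (Simes p) 0 were called, where 0.161% of 11187 genes were. An unadjusted p under 0.05 in gene value was found for 8 of the 78, near the 11.6% of all genes. The groups did not overlap for 7 of the 78, 4 higher and 3 lower, where 7.56% of all genes did not.

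None of the adaptors was called. The 5 subunits of AP-2, the main adaptor of the plasma membrane, had a median of -0.014 log2 (-0.035 to 0.071 with single arrays left out, and 0.096 with means over probe sets), and their largest difference was 0.24 log2 for the small subunit gene Ap2s1 (SE 0.12). Ap2b1, the beta subunit gene, differed by 0.092 log2 (SE 0.091). The 22 measured early arriving and cargo adaptors split into 11 higher and 11 lower around -0.0060 log2, with Arrb1 (beta-arrestin 1) at -0.21 log2 (SE 0.11) and Reps1 at 0.16 log2 (SE 0.10). The 15 measured adaptors of the Golgi and endosomes had a median of 0.015 log2, and the AP-3 subunits Ap3m1 and Ap3m2 lay at 0.21 (SE 0.12) and -0.19 log2 (SE 0.10).

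The 13 measured genes of curvature and scission, the partners of dynamin, had a median of 0.022 log2. Pacsin1, a neuronal F-BAR protein that binds dynamin, was 9.69, 9.82, 9.61 and 9.90 log2 in wild type and 9.50, 9.40, 9.54 and 9.45 log2 in Nova2 KO. The groups did not overlap and the difference was -0.28 log2 (SE 0.098, limma adjusted p = 0.295). Sh3gl2, which encodes endophilin A1 of nerve terminals, differed by -0.24 log2 (SE 0.098) with overlap. Of the others, named after their values were seen, Dnm2, the dynamin made in all tissues, differed by -0.22 log2 (SE 0.10) and Sh3kbp1 by 0.15 log2 (SE 0.093), both with no overlap, and Sh3glb1 (endophilin B1) had the largest difference of the list, 0.29 log2 (SE 0.13), with overlap.

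Among the 8 uncoating genes (median 0.031 log2), Synj1 stood lowest. It encodes synaptojanin 1, the phosphoinositide phosphatase of nerve terminals. It read 10.12, 10.25, 10.31 and 10.12 log2 in wild type and 9.996, 9.96, 10.09 and 9.66 log2 in Nova2 KO, with no overlap, and 43 of its 44 probe sets were lower. The difference was -0.27 log2 (SE 0.11, limma adjusted p = 0.373). Inpp5b, a related phosphatase gene, differed by -0.22 log2 (SE 0.12). The 8 measured kinase and lipid genes had a median of 0.028 log2, with Cdk5 at 0.22 log2 (SE 0.13) and Pik3c2b at 0.18 log2 (SE 0.14).

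The 7 genes of actin at the pit had the highest median of the 7 groups, 0.24 log2, and 6 of them were higher in Nova2 KO. Arpc2, a subunit of the Arp2/3 complex that nucleates branched actin, was 10.44, 10.37, 10.58 and 10.37 log2 in wild type and 10.67, 10.78, 10.80 and 10.88 log2 in Nova2 KO. The groups did not overlap, and the difference was 0.34 log2 (SE 0.096, limma adjusted p = 0.248). Actr3, another subunit of the complex, differed by 0.29 log2 (SE 0.095) with no overlap. The mean of the 7 genes was 10.06 to 10.17 log2 on wild type arrays and 10.30 to 10.32 log2 on Nova2 KO arrays. None of the 7 was called, and their median was 0.16 log2 with gene values taken as means over probe sets.

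**Figure D5:**
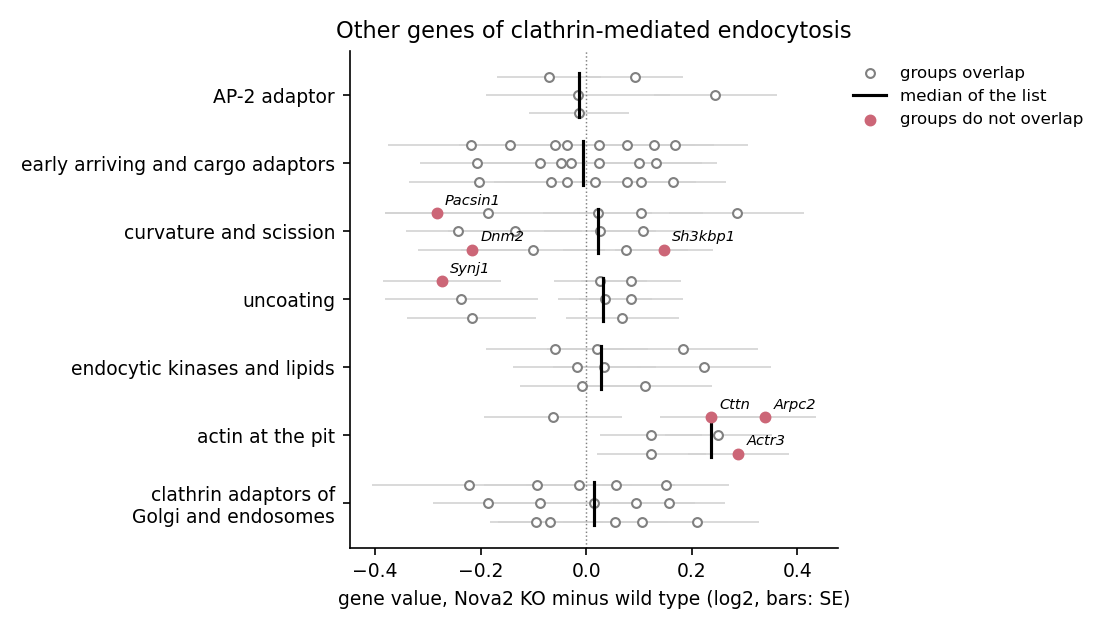
Gene value difference (Nova2 KO minus wild type, log2, bars for SE) of the 78 measured genes of the 7 pathway groups, with filled, named points where the groups do not overlap and a line at the median of the list. The lowest is Pacsin1 (-0.28) and the highest Arpc2 (0.34), and 44 of the 78 lie above 0.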

How the data were processed

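Values were read from the series' value table, which held 391597 probe sets on 8 arrays. Per the submitters' processing notes the authors summarised probes with PLIER, whose version was not given. The deposited values are log2 signals with a lower limit near 4, which an offset of 16 would give. The sources used here do not give how arrays were normalized, which genome build was used or how probe sets were selected. Values were therefore left as deposited, with no coordinates printed. The precision is limited by the number of arrays. Symbols came from the platform annotation (228454 probe sets naming 1 gene, 3443 several, 159700 unnamed) and were updated through a GRCm38.p6 gene table, in which 10783 of 13017 were current and 2203 were synonyms.

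Gene values needed 3 or more kept probe sets and indices 5 or more. Each measure was fitted over the whole table (293697 kept probe sets) with lmFit and eBayes of limma 3.58.1 in R 4.3.3, two-sided, without a block, and adjusted by Benjamini-Hochberg. Exon usage of a gene was called on the Simes p over its index probe sets. The scripts were tested on simulated data. Changes of 0.5, 1, 1.5 and 2 log2, added to 50 probe sets each, were called in the index for 0%, 22%, 38% and 64%. The simulated noise was drawn for each probe set by itself, so these shares are a rough guide. A missing call therefore does not show that an index was unchanged. Figures were drawn with matplotlib 3.10.9.

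The genes, the pathway and marker lists and the settings were chosen with earlier results of these data known, so no adjusted p is printed for the 10 genes. Those printed for Pacsin1, Synj1 and Arpc2, each of the lowest p in its list, are a description and not a test. Named probe sets are, per gene, the one of lowest index p and up to 2 more whose index values did not overlap. Each pathway list contributes the 2 genes of lowest p, and each further name is given for its place in a count or range.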

Additional observations from a re-analysis of the deposited data

Results flagged for a closer look

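In groups of 4 arrays, 1 array stood far from the other 3 in 9 of the 112 groups of values examined, and chance alone flags about 1 in 20. In gene value, Nova2 KO 3 was apart in Cltb (11.05 log2, others 10.90 to 10.92), Picalm (11.03, others 10.75 to 10.79) and Bin1 (10.45, others 10.27 to 10.30). Nova2 KO 1 was apart in Dnm1, at 11.25 log2 with the others at 11.03 to 11.05, on the side of the wild type arrays.

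In the index, Nova2 KO 3 was apart in Cltc probe set 5188961 (-4.25, others -5.11 to -4.97) and in the Dnm1 probe sets 5420205 (1.40, others 0.81 to 0.88) and 4605461 (-1.20, others -1.89 to -1.87). Wild type 4 was apart in Picalm probe set 5130826 (-0.65, others -0.90 to -0.86) and in Bin1 probe set 5249427 (-0.70, others -0.44 to -0.42).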

How the results depend on the processing

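Each value was recomputed with no filter, a filter at the 50th percentile, means over probe sets, the probe set itself left out of its gene value (index only), median centring, quantile normalization, the offset of 16 replaced by 1, the replicate number as a block, the array median as a covariate, an intensity trend, each array left out in turn and both arrays numbered 4 left out. In gene value 0 of the 10 genes and 0 of the 78 pathway genes were called in any of the 18 settings. The single called index, Cltc 4553841, kept its direction in all 19 settings for the index (-1.27 to -1.07 log2) and its call in 8. The count of called indices was 0 with no filter, the replicate block, the intensity trend or without both arrays numbered 4, and 0 to 2 when single arrays were left out: 2 without Nova2 KO 3 and 0 without any other. Simes calls came to 1 at the 50th percentile filter and with means over probe sets, and to 0 to 1 with single arrays left out, the 1 without Nova2 KO 3. Called signals came to 1 (Cltc 4553841) with the array median as covariate, the intensity trend, the 50th percentile filter or quantile normalization.

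The gene value difference of Itsn1 turned to -0.0022 log2 with no filter, -0.035 at the 50th percentile, -0.032 with means and -0.000658 with quantile normalization, and ran from -0.035 to 0.082 over single arrays. With means, Bin1 turned to 0.13 and Snap91 to 0.014 log2. Over single arrays Snap91 ran from -0.043 to 0.0089, Dnm3 from -0.0025 to 0.11 and the signal of Cltb 5394420 from -0.12 to 0.020 log2. The list medians of the adaptors, of curvature and scission and of uncoating turned sign under some settings (lowest -0.046, highest 0.096 log2), and that of actin at the pit ran from 0.16 to 0.26. Dnm1 stayed between -0.47 and -0.35 log2 in the 18 settings. The labels do not say that the sample numbers mark pairs. Deviations of same-numbered samples correlated at 0.082 to 0.52, over 0.1 in 3 of the 4 pairs, and 7 of 8 samples correlated best with their own number, which is a hint of shared signal from the data, so the block stayed an alternative. With the replicate block, Cltc 4553841 kept -1.18 log2 in the index but lost its call, and called genes over the whole table went from 25 to 80 and called indices from 26 to 4.

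Limits: 4 mice per group, unstated normalization, probe sets not placed on exons, no probe sequences, and index differences that take up any change of the gene value.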
